A study of Mus musculus with 18 samples.

Results

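The measurements concern 10 genes used as markers of astrocytes and of Bergmann glia, the radial astrocytes of the cerebellar cortex. They are Gfap, Vim, Aqp4, Gja1, Aldoc, Glul, S100b, Fabp7, Sox2 and Sox9. The genes were chosen by name, and every probe set that the platform annotation assigns to one of these symbols was taken, which gave 23 of 22690 probe sets and 10 of 12393 genes. No probe set with several symbols included a member (0 probe sets). All 10 genes passed the filter on low values, and 8298 genes in all were tested.

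Cerebella of male mice aged 80 ± 5 days were hybridised to Affymetrix 3' arrays, 1 array for each pool of RNA from 3 mice and 3 pools in each of 6 groups. The groups were wild-type, ApoD knock-out and human ApoD transgenic mice, each after an intraperitoneal injection of saline or of paraquat at 30 mg/kg, with the tissue frozen 6 h later. Paraquat is a herbicide that cycles electrons to oxygen and yields superoxide. ApoD is a secreted lipid-binding lipocalin made mostly by glia. The design text places the over-expression of the transgene in neurons, without naming the promoter. Arrays whose titles do not name paraquat were taken as saline from the treatment protocol. The strain is not given in the sources used here. Each pool held different mice, so p-values measure the spread between pools. In bulk tissue, fewer cells of a type and less RNA per cell cannot be told apart.

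Astrocytes take up glutamate and potassium at synapses, pass them through gap junctions, and cover the vessels and the pial surface with water channel-rich endfeet. Injury or inflammation makes many of them reactive, a state in which the intermediate filament proteins GFAP and vimentin are known to increase. Bergmann glia share these tasks around Purkinje cell dendrites and keep the transcription factor Sox2 and the fatty acid carrier Fabp7 into adult life. The genes are described here by role, first both filament genes, then channels, enzymes, small binding proteins and transcription factors.

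Values are log2 RMA values, so that a difference of 1 is a doubling of signal, and levels of different probe sets are not comparable with each other. The brightest probe set of each gene, which stood for the gene, had a mean above that of at least 56.5% (Sox9, the dimmest) of probe sets with 1 symbol. A further 22 genes of astrocytes and Bergmann glia were on the array and all 22 were tested, among them the glutamate transporter Slc1a3 with a wild-type saline mean of 10.82. Apod itself read 12.38 to 12.54 in wild-type saline, 8.22 to 8.50 in knock-out saline and 9.16 to 9.83 in knock-out paraquat mice. The transgenic arrays read 12.25 to 12.35 under saline and 12.13 to 12.32 under paraquat, below wild-type at 12.38 to 12.54 and 12.54 to 12.76, so this probe set does not show the over-expression of the label. Whether this mouse probe set reads the human transgene was not tested. Knock-out paraquat array 2 stood apart, with a median of 6.99 where the others had 7.10 to 7.15 and a spread (SD) of 2.06 where they had 2.20 to 2.28. It was the lowest array for Gfap, Vim, Aldoc, Glul and Sox2, and results that rest on it are given with and without it. Transgenic replicate 3 had a 3' minus 5' difference of the control pyruvate carboxylase of 1.82 under saline and 1.95 under paraquat, against 2.25 to 3.16 elsewhere. For actin this difference was 0.49 and 0.47, against 0.70 to 0.98 elsewhere, and for Gapdh -0.16 and -0.10, against -0.03 to 0.24. The 18S control read 7.55 to 7.98 on transgenic replicates 2 and 3 and 8.32 to 9.32 elsewhere.

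**Figure D1:**
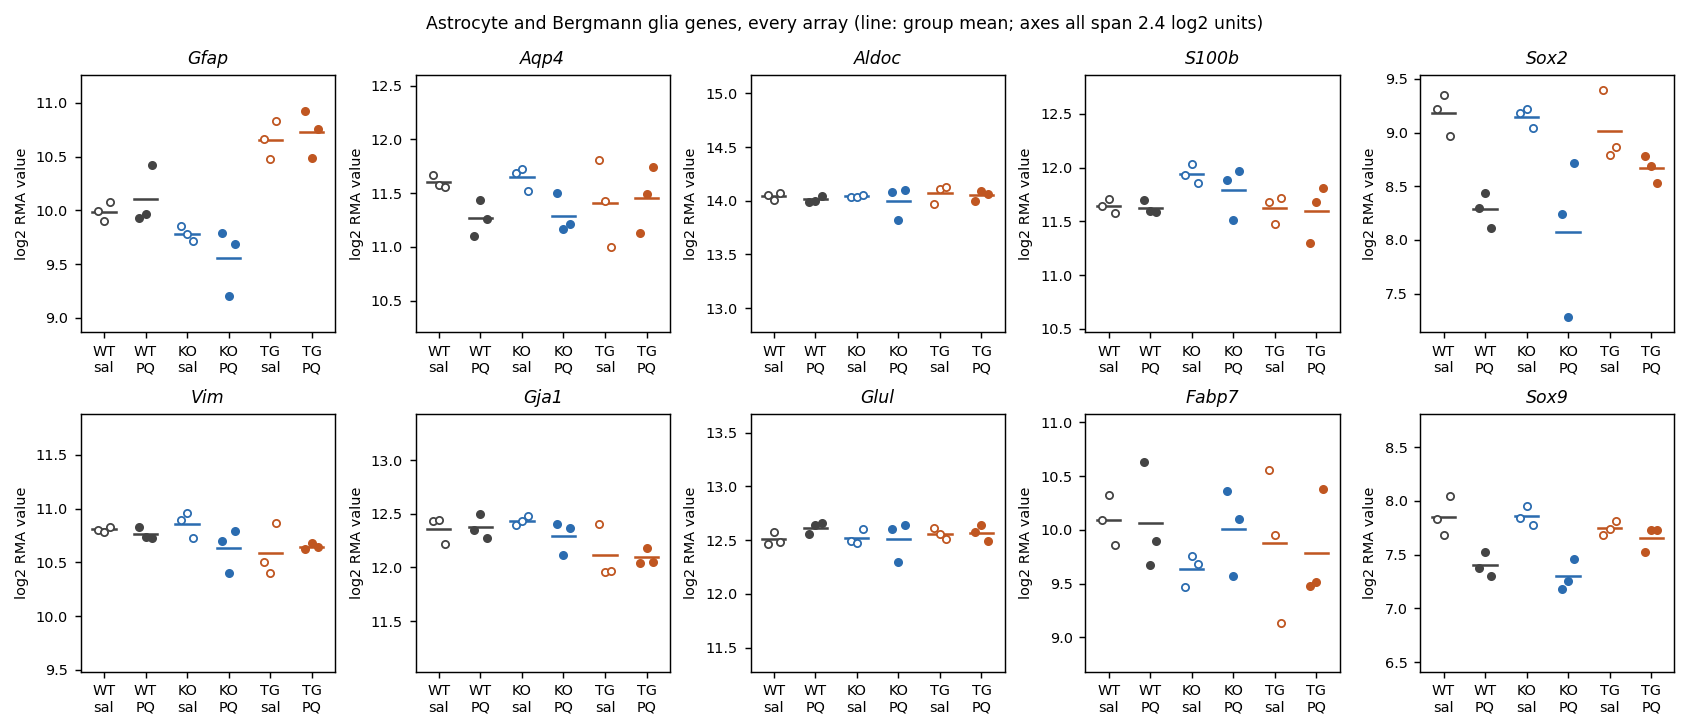
Log2 RMA value of each of the 10 genes (vertical axis, 2.4 log2 units in every panel) on every array, by genotype and treatment (horizontal axis; open points saline, filled points paraquat, line at the group mean of 3 pools). All 6 transgenic Gfap points lie above the other 12, and the paraquat points of Sox2 lie below the saline points in each genotype.

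For 8 of the 10 genes the promoter table, taken from RefSeq, held the bases before the transcription start. Aqp4 and Sox9 had no entry. The 250 bases upstream of the start are shown for both filament genes, because these did not move together, and for Sox2, which had the largest fall of the 10 genes. Builds and strands are GRCm38.p6, chr11:102897201-102897450 on the minus strand for Gfap, chr2:13574061-13574310 on the plus strand for Vim and chr3:34649745-34649994 on the plus strand for Sox2. Capitals mark matches to CCAAT, printed as ATTGG when the match is on the opposite strand, and to TATAAA.
Gfap: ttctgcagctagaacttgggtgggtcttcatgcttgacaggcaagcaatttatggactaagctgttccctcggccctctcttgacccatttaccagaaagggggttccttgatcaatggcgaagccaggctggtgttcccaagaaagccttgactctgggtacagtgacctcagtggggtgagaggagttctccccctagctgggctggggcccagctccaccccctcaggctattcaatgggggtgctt
Vim: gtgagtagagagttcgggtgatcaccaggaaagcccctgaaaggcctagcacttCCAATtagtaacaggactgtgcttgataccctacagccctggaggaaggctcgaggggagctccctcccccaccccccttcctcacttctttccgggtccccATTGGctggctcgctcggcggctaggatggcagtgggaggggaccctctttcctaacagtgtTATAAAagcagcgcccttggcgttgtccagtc
Sox2: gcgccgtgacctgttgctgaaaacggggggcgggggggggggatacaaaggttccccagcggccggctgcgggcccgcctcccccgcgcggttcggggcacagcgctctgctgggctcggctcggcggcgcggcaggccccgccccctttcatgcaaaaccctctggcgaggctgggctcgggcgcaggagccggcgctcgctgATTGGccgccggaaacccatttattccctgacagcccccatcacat
Both strands were searched for CCAAT, for TATAAA, for the STAT pattern TTCNNNGAA and for the glucocorticoid half-site TGTTCT (TTCNNNGAA and TGTTCT can overlap through TTC). The Sox2 window held 1 CCAAT match, on the opposite strand, 46 to 42 bases before the start, and 33.8% of the 32851 promoter windows of this length hold CCAAT. The Vim window held CCAAT 196 to 192 bases and, on the opposite strand, 94 to 90 bases before the start, and TATAAA 32 to 27 bases before it, which 12.4% of windows hold. None of the 4 patterns was found in the Gfap window, and TTCNNNGAA or TGTTCT in none of the 3, against 7.02% and 16.1% of all windows. The Sox2 window was 72.0% G and C with 27 CpG, against 58.4% with 8 CpG for Vim and 55.6% with 2 CpG for Gfap. These are properties of the letters only.

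Gfap, the glial filament protein used as the standard marker of reactive astrocytes, was called between transgenic and wild-type mice and in no paraquat comparison. In wild-type mice it read 9.99, 9.90 and 10.07 under saline and 9.93, 9.96 and 10.42 under paraquat. The transgenic arrays read 10.66, 10.48 and 10.83 under saline and 10.93, 10.49 and 10.76 under paraquat. The knock-out arrays read 9.86, 9.78 and 9.71 under saline and 9.79, 9.20 and 9.68 under paraquat. All 6 transgenic arrays were above all 12 others, and all 6 knock-out arrays were below all 6 wild-type arrays. The order of the group means was transgenic paraquat (10.73 ± 0.22, SD, n = 3), transgenic saline (10.66 ± 0.18), wild-type paraquat (10.11 ± 0.27), wild-type saline (9.99 ± 0.09), knock-out saline (9.78 ± 0.07) and knock-out paraquat (9.56 ± 0.31). Within each genotype the ranges of both treatments overlapped.

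In transgenic mice Gfap was 1.59-fold the wild-type level under saline and 1.54-fold under paraquat. The log2 differences were 0.67 (SE 0.16, 95% confidence interval 0.34 to 0.99, limma adjusted p = 0.0163) and 0.62 (SE 0.16, interval 0.30 to 0.95, adjusted p = 0.00954). Gfap was the only one of the 10 genes called in either comparison. Under saline 6.38% of all tested genes were called, 1.99% as higher, and under paraquat 19% were called, 4.64% as higher. Arrays that did not overlap, transgenic above, were found for 1 of the 10 genes under saline (Gfap; 14.4% of all genes) and 2 under paraquat (Gfap and Sox2; 14.4%), and transgenic below for 2 under paraquat (Vim and Gja1; 27.6%). Gfap was called higher under both treatments, as were 1.22% of all genes. Both calls rest on few arrays. The saline call ended when wild-type saline array 1 (limma adjusted p = 0.0695) or 2 (0.0908) or transgenic saline array 3 (0.0776) was left out, and the paraquat call when wild-type paraquat array 1 (0.0565) or 2 (0.0546) was left out. Transgenic saline array 3 also stood apart in its 3' minus 5' control differences, and the part of this in the Gfap difference was not tested.

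In the knock-out the Gfap differences from wild-type did not pass the test. They were -0.21 under saline (SE 0.16, interval -0.53 to 0.12, limma adjusted p = 1) and -0.55 under paraquat (SE 0.16, interval -0.87 to -0.22, adjusted p = 0.292). Leaving out knock-out paraquat array 2 gave -0.37 (limma adjusted p = 0.992). The median of all genes was itself shifted by -0.12 in that comparison, and by -0.06 after each array was centred on its median. Of the 10 genes 0 were called in the knock-out under saline, where 0.0241% of all genes were called, and 0 under paraquat, where 0.0121% were called. At an unadjusted p under 0.05 the counts were 1 of 10 (S100b; 1.55% of all genes) and 1 of 10 (Gfap; 13.2%). Arrays without overlap, knock-out below, were found for Gfap and Fabp7 under saline (10.3% of all genes) and for Gfap under paraquat (12.1%).

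Gfap was also the only one of the 10 genes whose 6 transgenic arrays all exceeded the 6 wild-type arrays while these all exceeded the 6 knock-out arrays. Among all tested genes 3 had this order (0.0362%), the others being Vegfb, a vascular growth factor, and Wfs1, a membrane protein of the endoplasmic reticulum. Knock-out arrays all below wild-type arrays were found for 1.27% of genes, and transgenic arrays all above the 12 others for 2.92%. Transgenic and knock-out mice were not tested against each other.

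A dimmer second Gfap probe set gave the same direction in the transgenic and knock-out comparisons with wild-type, with smaller differences in transgenic mice. It was 0.46 higher in transgenic mice under saline and 0.38 higher under paraquat. Tested on its own among 13092 probe sets it passed in neither comparison (limma adjusted p = 0.0791 and 0.0939). Its wild-type values ran from 9.34 to 9.78 over both treatments, its transgenic values from 9.63 to 10.25 and its knock-out values from 8.80 to 9.25. The knock-out values stayed apart from wild-type on this probe set too, and the transgenic values overlapped with wild-type.

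Vim encodes vimentin, a filament protein of several cell types, among them immature and reactive astrocytes, endothelium, fibroblasts and ependyma. Its arrays read 10.80, 10.78 and 10.83 in wild-type saline and 10.83, 10.74 and 10.73 in wild-type paraquat. Transgenic arrays read 10.50, 10.41 and 10.87 under saline and 10.62, 10.68 and 10.64 under paraquat. Knock-out arrays read 10.89, 10.96 and 10.72 under saline and 10.70, 10.40 and 10.79 under paraquat. The transgenic paraquat arrays were all below the wild-type paraquat arrays, and otherwise the transgenic and wild-type ranges overlapped.

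The filament genes thus did not move together in the transgenic mice. Vim differed from wild-type by -0.22 under saline (interval -0.47 to 0.03, limma adjusted p = 0.284) and by -0.12 under paraquat (interval -0.37 to 0.13), with the sign opposite to Gfap on all 3 Vim probe sets, which ran from -0.35 to -0.22 under saline and from -0.31 to -0.12 under paraquat. Across the 18 arrays Gfap and Vim had a Pearson r of -0.145, and of -0.519 over the 17 arrays that remain without array 2 of the knock-out paraquat group. This r describes arrays that share genotype and treatment groups.

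**Figure D2:**
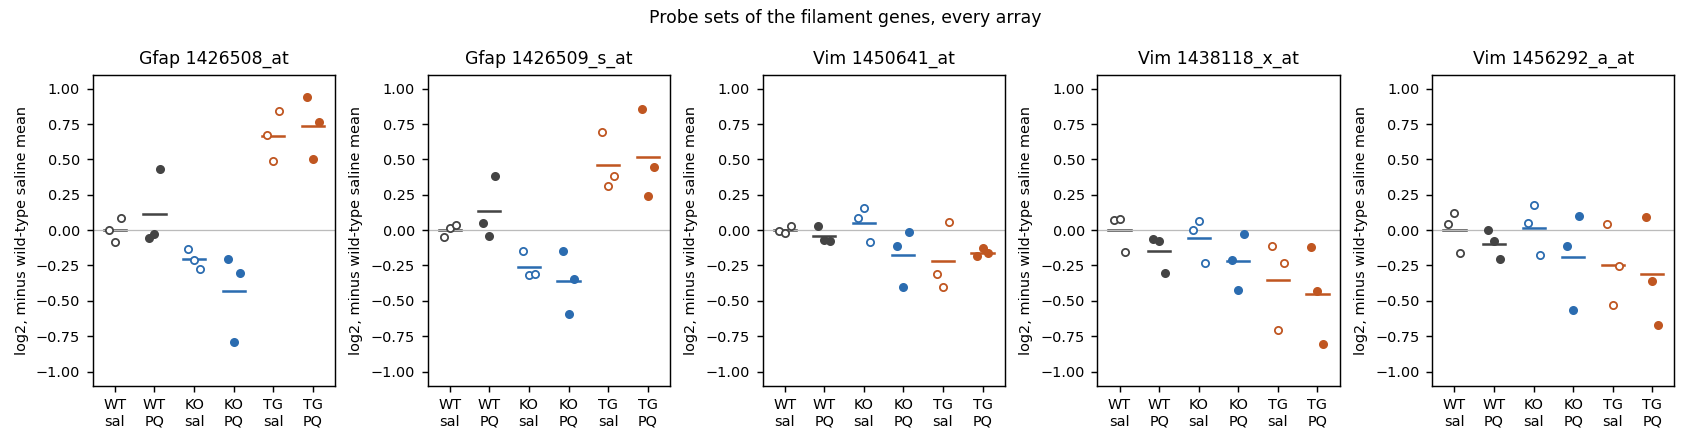
Log2 value minus the wild-type saline mean (vertical axis) for both Gfap probe sets and all 3 Vim probe sets on every array, by genotype and treatment (horizontal axis; line at the group mean of 3 pools). Transgenic arrays lie above the wild-type saline mean on both Gfap probe sets, and their group means lie below it on the Vim probe sets.

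Averaged over both filament genes the transgenic difference was 0.23 under saline and 0.25 under paraquat, and averaged over the 8 identity and metabolic genes it was -0.11 and 0.03. The filament average was positive through Gfap, since Vim was negative. In the knock-out these averages were -0.08 and -0.01 under saline and -0.34 and -0.05 under paraquat. Under paraquat against saline they were 0.04 and -0.20 in wild-type, -0.23 and -0.24 in knock-out and 0.06 and -0.07 in transgenic mice. Without knock-out paraquat array 2 the knock-out averages under paraquat were -0.20 and 0.10 against wild-type and -0.08 and -0.10 against saline. In wild-type and knock-out the most negative of the 8 under paraquat were Sox2, Sox9 and Aqp4.

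Markers of other tissues moved with genotype beside Gfap. All 3 tested choroid plexus markers were called lower in transgenic saline than in wild-type saline arrays, with list means of 7.23 to 8.92 against 9.78 to 10.04, and 1 of 3 was called lower under paraquat, with 8.46 to 9.68 against 9.87 to 9.93. Of 5 tested markers of meninges and fibroblasts, 3 were called lower in each of these comparisons, with list means of 7.63 to 8.13 against 8.24 to 8.50 under saline and 7.60 to 7.93 against 8.15 to 8.35 under paraquat. Of all genes 4.39% were called lower under saline and 14.3% under paraquat. The list of 9 tested Hox genes, taken up after Hoxb5 was seen, had means of 7.13 to 7.29 on transgenic saline and 7.17 to 7.27 on transgenic paraquat arrays, against 6.80 to 7.04 on wild-type saline and 6.69 to 7.05 on wild-type paraquat arrays. It includes Hoxb5, whose saline mean differed most, 7.47 in wild-type and 8.29 in transgenic mice. Hoxa7 (6.91 and 6.78) and Hoxc9 (6.63 and 6.58) were lower in transgenic saline, and the other listed Hox genes higher. Of 31 Hox genes on the array these 9 passed the filter on low values, the dimmest being Hoxb6 (5.77 and 6.39). A gene can pass through high transgenic arrays alone, and Hoxb5 was picked because it followed Gfap. The Hox means are therefore given as a description without a test and support nothing about Hox genes as a group. No ependymal marker was tested (0 of 4). The part of these shifts in the Gfap difference was not tested.

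**Figure D3:**
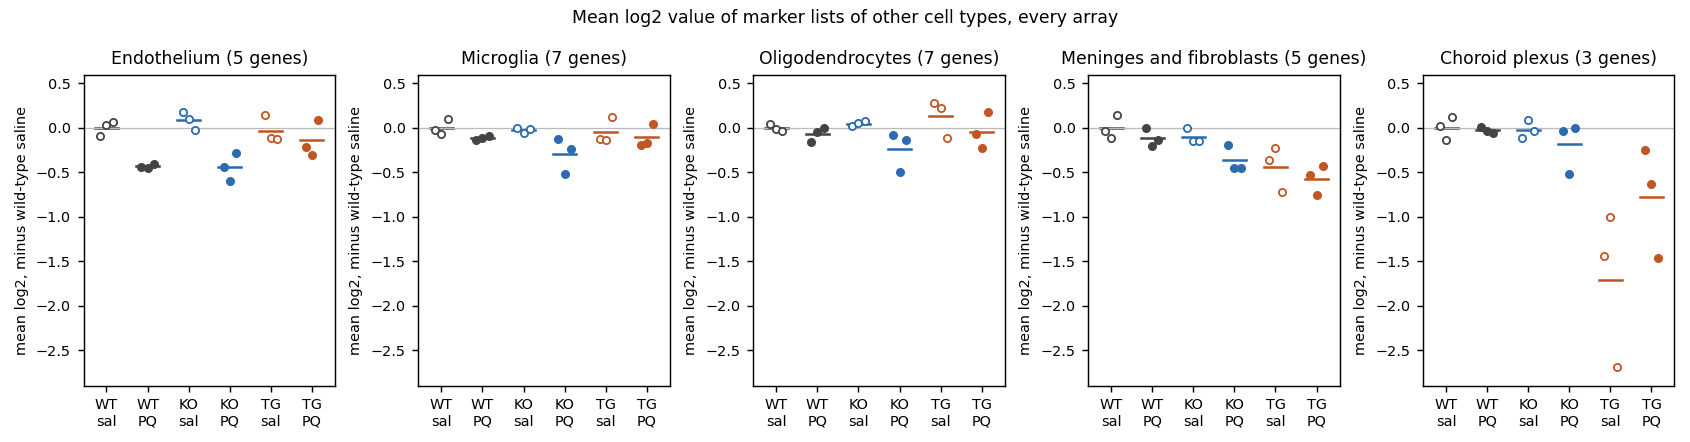
Mean log2 value of marker lists of 5 other cell types minus its wild-type saline mean (vertical axis) on every array, by genotype and treatment (horizontal axis; line at the group mean of 3 pools). Choroid plexus and meningeal lists are lowest on transgenic arrays, and the endothelial list is low on wild-type and knock-out paraquat arrays.

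**Figure D4:**
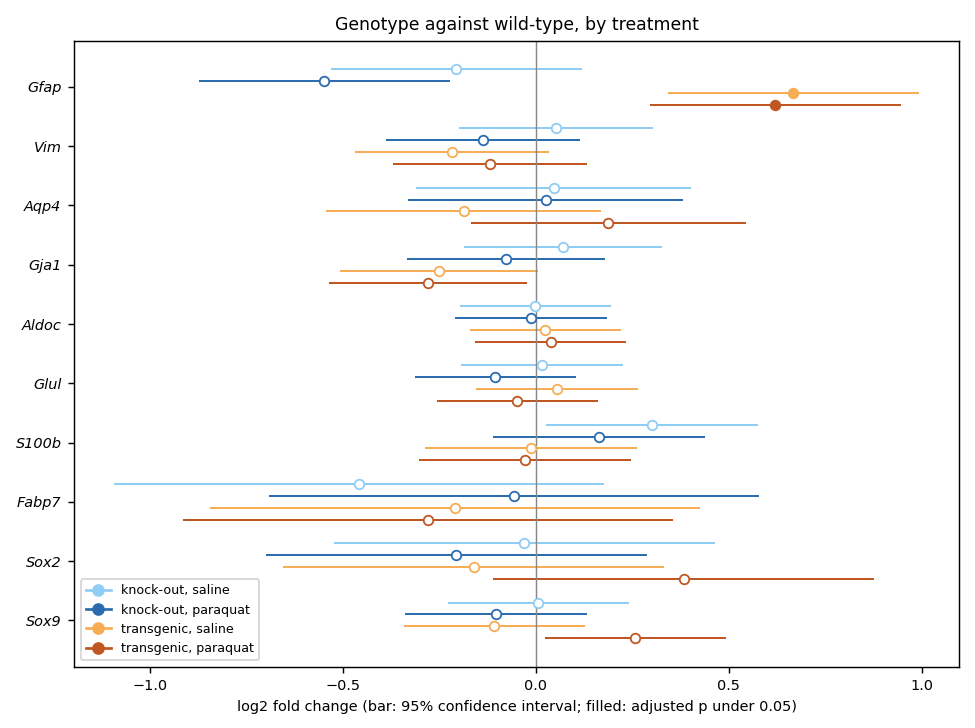
Log2 fold change of knock-out or transgenic against wild-type (horizontal axis, with 95% confidence interval) for each of the 10 genes (vertical axis), by treatment. Filled points mark an adjusted p under 0.05, which only Gfap in transgenic mice reached, with 0.67 under saline and 0.62 under paraquat.

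Neither channel gene had a call. Aqp4, the water channel of astrocyte endfeet, read 11.67, 11.58 and 11.55 in wild-type saline and 11.10, 11.44 and 11.26 in wild-type paraquat. The knock-out arrays read 11.69, 11.73 and 11.52 under saline and 11.50, 11.16 and 11.21 under paraquat. The transgenic arrays read 11.81, 11.43 and 11.002 under saline and 11.12, 11.49 and 11.74 under paraquat. In wild-type and knock-out every paraquat array was below every saline array, and in transgenic mice the ranges overlapped widely. The differences did not pass the test, with -0.33 in wild-type (SE 0.17, interval -0.69 to 0.02, limma adjusted p = 0.562) and -0.35 in knock-out (SE 0.17, interval -0.71 to 0.00, adjusted p = 0.282). Leaving out knock-out paraquat array 2 gave -0.29 in knock-out (limma adjusted p = 0.621). Separation of this kind in both genotypes, paraquat below saline, was found for 6.64% of all genes. The dimmer Aqp4 probe set gave paraquat differences of -0.19 in wild-type, -0.40 in knock-out and -0.22 in transgenic mice, where the brighter gave 0.04. Against wild-type under paraquat the transgenic difference was -0.24 on the dimmer and 0.19 on the brighter probe set, so they disagree in sign there.

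Gja1 encodes connexin 43, the main gap junction protein of astrocytes, and has 6 probe sets. Its group means were 12.36 ± 0.13 in wild-type saline, 12.43 ± 0.04 in knock-out saline and 12.11 ± 0.26 in transgenic saline (SD, n = 3). Under paraquat they were 12.37 ± 0.12, 12.30 ± 0.16 and 12.09 ± 0.08 in the same order of genotypes. The 3 transgenic paraquat arrays, at 12.04 to 12.18, were below the 3 wild-type paraquat arrays, at 12.27 to 12.50. The difference of -0.28 (SE 0.12, interval -0.54 to -0.02) was not called (limma adjusted p = 0.113), nor was the difference of -0.25 under saline (adjusted p = 0.218). All 6 probe sets were lower in transgenic saline, and 5 of 6 in transgenic paraquat.

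Among the enzymes, Aldoc, the brain aldolase of glycolysis, varied least on its brighter probe set, from 13.82 to 14.13 over all 18 arrays. Its lowest value was on the second knock-out paraquat array. Glul, glutamine synthetase, which turns glutamate taken up from synapses into glutamine, ran from 12.30 to 12.66 on its brighter probe set, with the lowest value on the same array. None of their comparisons was called on the brighter probe sets, and the intervals against wild-type in each treatment lay within -0.21 and 0.23 for Aldoc and -0.31 and 0.26 for Glul. The dimmer Aldoc probe set varied more, from 8.37, again on the second knock-out paraquat array, to 9.22. It gave 0.23 under paraquat in wild-type (limma adjusted p = 0.871). Between knock-out and wild-type under paraquat it gave -0.35 (limma adjusted p = 0.41).

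The dimmer Glul probe set differed from the brighter one under paraquat. It read 10.66, 10.41 and 10.63 in wild-type saline and 10.86, 10.77 and 10.82 in wild-type paraquat. In knock-out it read 10.37, 10.19 and 10.23 under saline and 10.87, 10.51 and 10.66 under paraquat. In transgenic mice it read 10.34, 10.56 and 10.32 under saline and 10.90, 10.58 and 10.39 under paraquat. Paraquat arrays were above saline arrays in wild-type and knock-out, and the transgenic ranges overlapped. Averaged over genotypes it rose by 0.29 (SE 0.08, limma adjusted p = 0.0347 among 13092 probe sets), whereas the brighter probe set gave 0.04 (SE 0.06, adjusted p = 0.828). The probe sets of Glul thus disagree, and no call was made for the gene.

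S100b, a calcium-binding protein of mature astrocytes and Bergmann glia, read 11.94, 12.03 and 11.86 in knock-out saline against 11.64, 11.70 and 11.57 in wild-type saline. These groups did not overlap, as with 10.3% of all genes, and the difference of 0.30 (SE 0.13, interval 0.03 to 0.58) was not called (limma adjusted p = 1). Its second probe set gave 0.04 in the same comparison. The remaining S100b arrays lay between 11.30 and 11.97. Fabp7, the brain fatty acid-binding protein of radial glia, ran from 9.13 to 10.56 within transgenic saline alone. Its pooled SD within groups of 0.46 was the largest of the 10 genes, ahead of 0.35 for Sox2, and none of its differences was called. The largest, -0.46 between saline-treated knock-out and wild-type mice, had an interval from -1.09 to 0.18.

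Sox2 and Sox9, transcription factors that astrocytes keep from neural stem cells, fell after paraquat on average over genotypes. Sox2 read 9.22, 9.35 and 8.97 in wild-type saline and 8.30, 8.44 and 8.12 in wild-type paraquat. The knock-out arrays read 9.18, 9.22 and 9.04 under saline and 8.24, 7.28 and 8.71 under paraquat. The transgenic arrays read 9.40, 8.79 and 8.86 under saline and 8.78, 8.69 and 8.53 under paraquat. In each of the 3 genotypes every paraquat array was below every saline array, by the narrowest margin in transgenic mice, and the lowest value of all was on array 2 of the knock-out paraquat group. Such separation in all 3 genotypes was found for 0.458% of all genes, and Sox2 was the only one of the 10 with it.

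Sox2 fell by 0.77 on average over genotypes (SE 0.14, interval -1.06 to -0.49, limma adjusted p = 0.00153), to 0.586 of the saline signal. In knock-out it fell by 1.07 (SE 0.24, limma adjusted p = 0.0178). Leaving out knock-out paraquat array 2 gave -0.67 (limma adjusted p = 0.0529) in knock-out and -0.64 (adjusted p = 0.000253) on average, and the knock-out call also ended without knock-out saline array 1 (0.0871) or 2 (0.105). In wild-type the difference of -0.89 (SE 0.24, interval -1.39 to -0.40) did not pass the threshold (limma adjusted p = 0.0565). In transgenic mice it was -0.35 (interval -0.84 to 0.14, limma adjusted p = 1). Its only single-symbol probe set gave these values.

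Sox9 read 7.83, 7.69 and 8.04 in wild-type saline and 7.38, 7.53 and 7.30 in wild-type paraquat. The knock-out arrays read 7.84, 7.96 and 7.78 under saline and 7.18, 7.25 and 7.46 under paraquat. The transgenic arrays read 7.68, 7.74 and 7.81 under saline and 7.52, 7.73 and 7.73 under paraquat. Saline and paraquat arrays did not overlap in wild-type and knock-out, and overlapped in transgenic mice. Sox9 fell by 0.45 in wild-type (SE 0.11, limma adjusted p = 0.0397), by 0.56 in knock-out (SE 0.11, adjusted p = 0.0093) and by 0.37 on average over genotypes (SE 0.06, adjusted p = 0.00157). In transgenic mice the difference was -0.09 (interval -0.32 to 0.15, limma adjusted p = 1).

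The wild-type call of Sox9 was the least firm, since leaving out any of 10 single arrays ended it. The limma adjusted p was then 0.134 and 0.268 for wild-type saline arrays 1 and 3, and 0.154, 0.0552 and 0.212 for the 3 wild-type paraquat arrays. For 5 arrays of other groups, where the fold change stayed -0.45, it was 0.061, 0.0545 and 0.057 for the 3 knock-out saline arrays, 0.0514 for transgenic saline array 2 and 0.0513 for transgenic paraquat array 2. The knock-out call ended without knock-out saline array 2 (limma adjusted p = 0.0853) and held without knock-out paraquat array 2 (-0.54, adjusted p = 0.0206). Being called lower in both genotypes was shared with 0.349% of all genes. The second Sox9 probe set gave -0.45 in wild-type, -0.39 in knock-out and -0.30 on average over genotypes, where it did not pass among 13092 probe sets (limma adjusted p = 0.0523).

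Counted over the 10 genes, 1 was called lower under paraquat in wild-type, 2 in knock-out, 0 in transgenic mice and 2 on average over genotypes, and 0 were called higher. Of all tested genes 2% were called in wild-type, 0.47% as lower and 1.53% as higher. In knock-out 2.27% were called, 1.47% as lower and 0.795% as higher. In transgenic mice 0% were called, with 1.41% at an unadjusted p under 0.05 and 0 of the 10 genes among them. On average over genotypes 4.93% were called, 2.9% as lower and 2.02% as higher. Paraquat arrays all below saline arrays were found for 3 of the 10 genes in wild-type (11.8% of all genes), 3 in knock-out (17.7%) and 1 in transgenic mice (2.52%). The median difference of the 10 genes was -0.03 in wild-type, -0.19 in knock-out and -0.02 in transgenic mice, against 0.02, -0.09 and -0.03 for all genes, and without array 2 of the knock-out paraquat group the knock-out medians were -0.05 and 0.01.

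**Figure D5:**
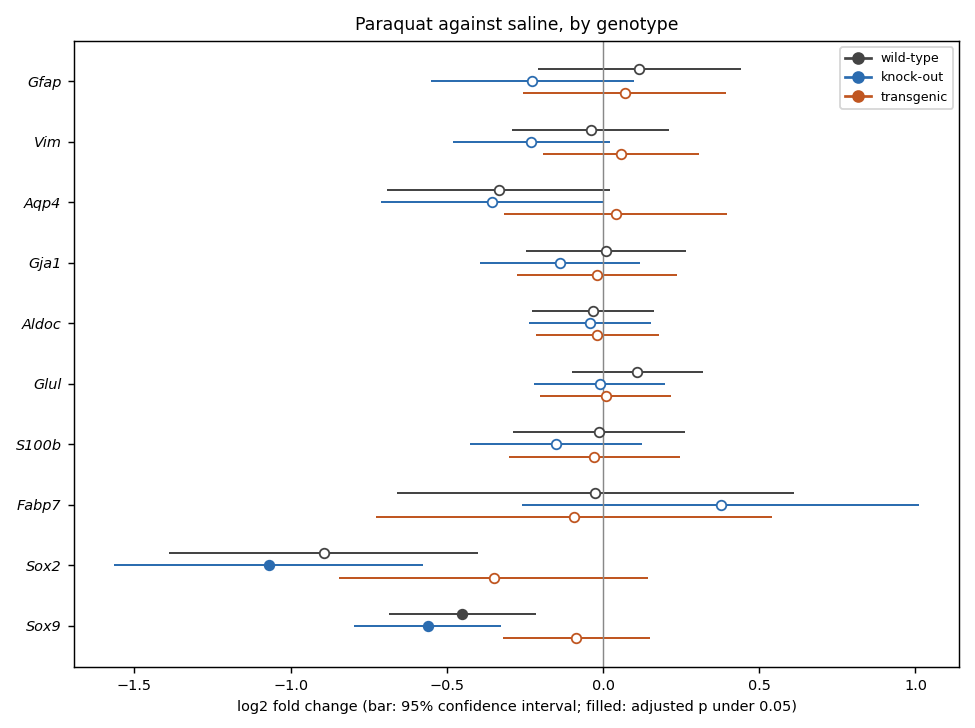
Log2 fold change of paraquat against saline (horizontal axis, with 95% confidence interval) for each of the 10 genes (vertical axis) in wild-type, knock-out and transgenic mice. Filled points mark an adjusted p under 0.05, reached by Sox9 in wild-type (-0.45) and by Sox2 (-1.07) and Sox9 (-0.56) in knock-out.

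Whether the response to paraquat differed between genotypes was tested directly. For transgenic minus wild-type the difference of the effects was 0.54 for Sox2 (SE 0.33, interval -0.15 to 1.24, limma adjusted p = 1) and 0.37 for Sox9 (interval 0.03 to 0.70, adjusted p = 0.973). For knock-out minus wild-type it was -0.18 for Sox2 (interval -0.87 to 0.52) and -0.11 for Sox9 (interval -0.44 to 0.22). None of the 10 genes was called in either test (0 and 0), where 0.181% and 0% of all genes were called. At an unadjusted p under 0.05 the counts were 1 and 0 of the 10, and 4.52% and 1.76% of all genes. A weaker Sox2 or Sox9 response in transgenic mice is therefore not shown.

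Some endothelial markers were lower beside Sox2 and Sox9. Of 5 tested, 2 were called lower under paraquat in wild-type, 3 in knock-out (2 without the low knock-out paraquat array) and 0 in transgenic mice, where 0.47%, 1.47% and 0% of all genes were called lower. The list mean was 8.18 to 8.34 on wild-type saline and 7.83 to 7.87 on wild-type paraquat arrays, 8.26 to 8.46 and 7.68 to 7.99 in knock-out, and 8.15 to 8.42 and 7.98 to 8.37 in transgenic mice. Of 7 tested microglial markers, 1 was called lower in wild-type and 1 in knock-out (against the same 0.47% and 1.47% of all genes), with list means of 8.05 to 8.21 against 7.98 to 8.02 in wild-type and 8.06 to 8.11 against 7.60 to 7.99 in knock-out. The part of these cells in the Sox2 and Sox9 differences was not tested.

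The other astrocyte and Bergmann glia genes gave a wider view of the same cells. Under paraquat 1 of 22 was called higher in wild-type and 0 lower, 1 higher and 1 lower in knock-out, and 0 in transgenic mice. The counts in wild-type and knock-out compare with 2% and 2.27% of all genes. The gene that rose was Gjb6, connexin 30, a gap junction protein of astrocytes like Gja1, by 0.82 in wild-type (SE 0.16, limma adjusted p = 0.00751) and 0.73 in knock-out (adjusted p = 0.018). Its group means were 10.04 ± 0.05 and 10.86 ± 0.04 in wild-type saline and paraquat, 10.19 ± 0.14 and 10.93 ± 0.25 in knock-out, and 10.30 ± 0.24 and 10.46 ± 0.39 in transgenic mice. The other astrocyte connexin, Gja1, gave 0.01 in wild-type and -0.14 in knock-out, and the difference between these genes was not tested. Slc4a4, a sodium bicarbonate cotransporter, fell by 0.54 in knock-out (limma adjusted p = 0.0116). The knock-out call of Gjb6 ended without knock-out saline array 1 or 2 or knock-out paraquat array 1. It also ended when only the groups compared were fitted (limma adjusted p at most 0.115 over the alternatives). That of Slc4a4 ended without knock-out saline array 1, when its probe sets were averaged and when only the groups compared were fitted (at most 0.164).

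On average over genotypes Gjb6 rose by 0.57, and Slc4a4 (-0.27), the potassium channel Kcnj10 (-0.30, limma adjusted p = 0.0491) and the lipid phosphatase Plpp3 (-0.21, adjusted p = 0.049) fell. The Kcnj10 and Plpp3 calls held in 12 and 7 of 27 alternatives and ended in most of the runs that left out an array. The Slc4a4 call held in 24 of 27 (limma adjusted p at most 0.289). Averaging its probe sets ended it, as did leaving out knock-out saline array 1 or wild-type paraquat array 1. The median over the 22 genes was -0.02 in wild-type, -0.08 in knock-out and -0.04 in transgenic mice, against 0.02, -0.09 and -0.03 for all genes.

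In transgenic mice 2 of the 22 were higher than wild-type under saline, the receptor Gpr37l1 (0.60, limma adjusted p = 0.00917) and the glutamate transporter Slc1a2 (0.48, adjusted p = 0.0343), and 0 were lower, where 6.38% of all genes were called. Under paraquat 4 were higher, Gpr37l1 (0.63, limma adjusted p = 0.00241), the glutamate transporter Slc1a3 (0.51, adjusted p = 0.0357), Slc1a2 (0.39, adjusted p = 0.0431) and Ndrg2 (0.33, adjusted p = 0.0461). The extracellular chaperone Clu (-0.30, limma adjusted p = 0.0357) and the chloride channel Ttyh1 (-0.47, adjusted p = 0.0246) were lower, and the Ttyh1 difference was 0.01 when all its probe sets were averaged. These 6 of 22 stand against 19% of all genes called. Gpr37l1 had group means of 11.76 ± 0.03 in wild-type saline, 12.37 ± 0.15 in transgenic saline, 11.67 ± 0.08 in wild-type paraquat and 12.30 ± 0.06 in transgenic paraquat. Its saline call ended without wild-type saline array 2 or transgenic saline array 2 (limma adjusted p at most 0.0592), and its paraquat call held in 27 of 27 alternatives. The others were less firm, with Slc1a2 called in 21 of 27 alternatives under saline and 17 under paraquat, and under paraquat Slc1a3 in 19, Clu in 20, Ttyh1 in 22 and Ndrg2 in 12. Slc1a3 was not called when all its probe sets were averaged, and its difference ran from 0.085 to 0.74 over the alternatives. None of the 22 was called between knock-out and wild-type under either treatment (0 and 0). The median of the list was there 0.03 under saline and -0.09 under paraquat, against -0.00078 and -0.12 for all genes. Without knock-out paraquat array 2 the medians under paraquat were 0.03 for the list and -0.01 for all genes. The transgenic median was 0.17 under saline and 0.09 under paraquat, against -0.01 and -0.06 for all genes. Without the low array 4 of the 22 were called higher and 1 lower in transgenic saline (18.8% of all genes then called) and 4 higher and 3 lower in transgenic paraquat (33.9%). Under paraquat 2 were then called higher in wild-type (4.27%) and 3 on average over genotypes (7.41%).

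Of 26 listed genes of reactive astrocytes 23 were on the array and 11 passed the filter. Under paraquat 1 was called higher and 1 lower in wild-type, 2 higher and 2 lower in knock-out and 0 in transgenic mice, where 2%, 2.27% and 0% of all genes were called. Without the low array 2 were higher and 2 lower in wild-type (4.27% of all genes) and as many in knock-out (1.82%). Each count of higher genes in wild-type and knock-out includes Lcn2, which passed the filter only through its high arrays, so the counts support nothing about the list. Lcn2, the acute-phase lipocalin 2, read 4.14, 4.28 and 4.30 in wild-type saline and 6.39, 6.70 and 7.01 in wild-type paraquat. It read 4.28, 4.19 and 4.10 in knock-out saline and 6.61, 6.98 and 7.46 in knock-out paraquat. The transgenic arrays read 4.002, 4.37 and 4.09 under saline and 4.85, 4.69 and 4.13 under paraquat. The transgenic paraquat arrays were all below the other paraquat arrays and overlapped with the transgenic saline arrays.

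The saline and transgenic Lcn2 values lay low on the array, the wild-type saline mean of 4.24 exceeding that of 7.16% of all genes. The group differences of Lcn2, 2.46 under paraquat in wild-type and 2.83 in knock-out, are therefore given as a description without a test. The extracellular matrix protein tenascin C, Tnc, made by Bergmann glia, fell by 0.68 in wild-type (limma adjusted p = 0.00501) and 0.81 in knock-out (adjusted p = 0.00106). The hyaluronan receptor Cd44 fell by 1.24 in knock-out (limma adjusted p = 0.000132). The acute-phase inhibitor Serpina3n rose by 0.60 in knock-out (limma adjusted p = 0.0238). This call ended when knock-out paraquat array 2 was left out (adjusted p = 0.0856) or any 1 of the 3 knock-out saline arrays. It also ended when only the groups compared were fitted (at most 0.183 over the alternatives). Gfap and Vim, which head most lists of reactive genes, gave 0.12 and -0.04 in wild-type under paraquat. In transgenic against wild-type mice the complement inhibitor Serping1 was lower by 0.49 under saline (limma adjusted p = 0.0378, called in 16 of 27 alternatives) and by 0.77 under paraquat (adjusted p = 0.00112), and under paraquat Tnc was higher by 0.73 (adjusted p = 0.000898). With Lcn2, which differed by -2.15 under paraquat, 1 of 11 was called lower under saline (4.39% of all genes) and 2 lower and 1 higher under paraquat (14.3% and 4.64%). Without the low array 4 were called lower under paraquat, where 33.9% of all genes were called in either direction. Both counts of lower genes under paraquat include Lcn2, which passed the filter only through its high arrays, so they support nothing about the list.

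The tested genes whose values followed each member most closely were ranked by Pearson r over the 18 arrays, which share their groups and the low array, knock-out paraquat array 2. For Gfap they were Hoxb5 (0.941, and 0.926 without the low array), Vegfb (0.930 and 0.909) and Tubb4a (0.930 and 0.910). Hoxb5, a homeobox gene, had a mean of 7.47 ± 0.10 in wild-type saline and 8.29 ± 0.27 in transgenic saline, a difference of 0.82. For Vim the first was the cytokine Il33 (0.876 and 0.872). For Sox9 they were the chemokine receptor Cx3cr1 (0.916 and 0.900), known from microglia, the chemokine Cxcl12 (0.886 and 0.867) and Cd44 (0.878 and 0.871). For Sox2 the first was Trim59 (0.973 and 0.952), with a paraquat difference of -0.98 in wild-type, -1.14 in knock-out and -0.18 in transgenic mice. Hoxb5 and Trim59 were picked because they followed a member on the same arrays. Their group differences are therefore given as a description without a test.

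For the genes with no call, the first were Magt1 for Aqp4 (0.830), Usp45 for Gja1 (0.964), Atp6v1g2 for Aldoc (0.942), Wrap53 for Glul (0.873), Fam133b for S100b (0.857) and Ndufa1 for Fabp7 (0.779). Without the low array the Aldoc value became 0.857 and that of Glul 0.729. Among the members themselves Sox2 and Sox9 had an r of 0.766, and 0.745 without that array. Gfap and Gja1 had -0.564, and -0.796 without it.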

How the data were processed

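Log2 expression values of 22690 probe sets on 18 arrays were deposited by the authors, who made them with RMA per the submitters' processing notes. The version is not given in the sources used here. RMA subtracts background, quantile normalizes all arrays together and summarises probes, so a shift shared by all genes is largely removed, and no counts or depths exist. Each value rests on 1 pool, and 3 pools a group limit the precision.

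Genes were named from the platform annotation, and the brightest probe set with 1 symbol stood for a gene. Genes above the 40th percentile of an array on at least 3 arrays were kept (8298 genes). limma 3.58.1 in R 4.3.3 was fitted to the 6 group means (12 residual degrees of freedom), with eBayes, Benjamini-Hochberg adjustment over all genes tested and a threshold of 0.05, two-sided. An exact permutation test of 3 against 3 arrays cannot go below p = 0.1 and was not used. Single probe sets were tested in a separate fit over 13092 probe sets. The code was tested on simulated data, and figures were drawn with matplotlib 3.10.9.

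The 10 genes, the gene lists and the tests were chosen with earlier results of these data known. Named genes were all members, every listed astrocyte or reactive gene called in a comparison (at most 8 a comparison by size of change), and the 3 genes most like each member. There were 28 alternatives, among them each array left out in turn. Those for listed genes, and the Hox list, were chosen after seeing the data. Deviations from the group means were correlated between samples of a genotype. Same-numbered saline and paraquat samples had correlations of 0.128 to 0.417 in transgenic, 0.085 to 0.335 in wild-type and -0.283 to -0.091 in knock-out mice. Differently numbered saline and paraquat samples had -0.264 to 0.161 in transgenic, -0.208 to 0.099 in wild-type and -0.168 to 0.298 in knock-out mice. In transgenic and wild-type mice all same-numbered values were thus positive and most differently numbered ones negative, and in knock-out mice all same-numbered values were negative. Whether the numbers mark a pairing cannot be told from these values.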

Additional observations from a re-analysis of the deposited data

Results flagged for a closer look

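The difference between the paraquat responses of Lcn2 in transgenic and wild-type mice was -2.06 on the log2 scale (SE 0.28). It was listed here by rule, through a limma test of the difference itself, and the p-value is not used as support. Lcn2 passed the filter only through the wild-type and knock-out paraquat arrays where it is high, and its other values are near the bottom of the range. The size is therefore uncertain, and the difference is given as a description. Among the 10 astrocyte and Bergmann glia genes none passed this test (0 of 10, with 1 of 10, Sox9, at an unadjusted p under 0.05).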

How the results depend on the processing

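Of the 100 differences of the 10 genes, 7 were called, and none of these 7 changed sign under any of the alternatives run. Among the 93 not called, 51 changed sign under at least 1 alternative. Sox2 and Sox9 averaged over genotypes were called in 27 of 27 alternatives, Gfap in transgenic mice in 24 of 27 under saline and 25 of 27 under paraquat, and under paraquat Sox9 in knock-out in 26 of 28, Sox2 in knock-out in 24 of 28, Sox9 in wild-type in 15 of 28 and Sox2 in wild-type in 8 of 28. The count of genes called among the 10 under paraquat in wild-type was 0 with no filter on low values or with each probe set tested on its own, 2 after a further quantile normalization or centring each array on its median, and 3 with array weights or with only the groups compared. With only the groups compared it was 0 under paraquat in knock-out, 1 between knock-out and wild-type saline groups and 2 between transgenic and wild-type paraquat groups. With array weights it was 3 under paraquat in knock-out, 1 between knock-out and wild-type saline groups, 4 between transgenic and wild-type mice given saline and 4 given paraquat, and 1 for the difference of paraquat effects between transgenic and wild-type mice, while 49.6% and 49.7% of all genes were then called in the transgenic comparisons. Leaving out single arrays gave 0 to 2 genes for paraquat in wild-type, 0 to 2 in knock-out, 0 to 2 between transgenic and wild-type mice given saline and 0 to 1 given paraquat, and 0, 2, 0, 0, 0 and 0 in every run for paraquat in transgenic mice, paraquat averaged, both knock-out comparisons and both differences of effects. With the replicate number as a block (replicate block) the counts were 1, 2, 0 and 2 for paraquat in wild-type, knock-out, transgenic and averaged, and 1 and 1 for transgenic against wild-type. With the block within each genotype the wild-type count was also 1, Sox2 (limma adjusted p = 0.0121) in place of Sox9. The block changed no other call among the 10 genes. Of the listed genes only Ttyh1 turned sign, to 0.0124 when a gene's probe sets were averaged. The causes were not tested. With 3 pools a group, the median half-width of the 95% interval was 0.27 for a comparison of groups and 0.38 for a difference of effects, so smaller changes could not be shown.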
